A study of Homo sapiens with 31 samples.

Results

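A2780 OlaR stands here for the libraries labelled as an olaparib-resistant strain of the human ovarian carcinoma line A2780, and they were compared with untreated A2780 across gene families other than DNA repair. Olaparib is an inhibitor of poly(ADP-ribose) polymerases. Of the 31 libraries of the series, 16 entered the comparison, 8 of A2780 OlaR and 8 of A2780. Of 19221 genes in the deposited table, 12458 reached at least 1 FPKM (fragments scaled to transcript length and to library size) in at least 8 of these 16 libraries and were tested. By the study's methods, the resistant line was selected by growing A2780 in olaparib that was raised step by step. The labels describe it as treated with Olaparib and the parent carries no added agent. Both lines were kept in the same serum-supplemented medium, and poly(A) RNA was sequenced. The sources describe 1 resistant strain, so the 8 libraries per group measure the spread between samples of 1 selection and not between independent selections.

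PARP inhibitors trap PARP enzymes on damaged DNA, and cells that lack homologous recombination tolerate this poorly. Carcinoma lines kept under drug can also change their cell state, the balance between epithelial features (keratins, cadherin junctions, desmosomes) and mesenchymal features (vimentin, interstitial collagens, contractile proteins). Detoxification under the factor NRF2 and drug export by ABC transporters are further programs known in drug-tolerant carcinoma cells. The lists described below cover such programs, together with signalling, metabolism, growth and lineage identity.

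The resistant libraries lay far from their parent and near to another line of the series. C13* is a cisplatin-resistant line that the labels give as ovarian carcinoma, though the study's own text voices doubt about its origin, and it carried a control hairpin (C13* shCON) or a hairpin against CEBPB (C13* shCEBPB). The median absolute difference in log2(FPKM + 1) over the tested genes was 0.70 between the means of A2780 OlaR and A2780, 0.12 between A2780 OlaR and C13* shCON, and 0.52 between A2780 OlaR and C13* shCEBPB. Pairs of libraries within A2780 OlaR differed by 0.06 to 0.22 and pairs within A2780 by 0.06 to 0.18. Of 8 A2780 OlaR libraries, 8 were nearer to C13* shCON (0.14 to 0.19) than to A2780 (0.70 to 0.73). Only 0.474% of genes differed by at least 2-fold between the means of A2780 OlaR and C13* shCON. These profiles put the label of the 8 libraries as a derivative of A2780 in doubt, and whether they are one was not tested. The names A2780 OlaR, resistant and parent are kept below as labels only, and a change under olaparib and a difference between unrelated lines cannot be told apart in any value given. Setting aside the libraries that show this would leave no resistant group, so every difference below rests on them. Of 7 C13* shCON libraries, 1 carries A2780 as its cell line in the labels and was kept by its title. It differed by 0.07 from the mean of the other C13* shCON libraries and by 0.70 from A2780, and without it the difference between A2780 OlaR and C13* shCON was again 0.12, an alternative added after seeing the data. C13* shCON values are given beside some key genes, and since both comparisons share the A2780 libraries they are not independent of each other.

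**Figure D1:**
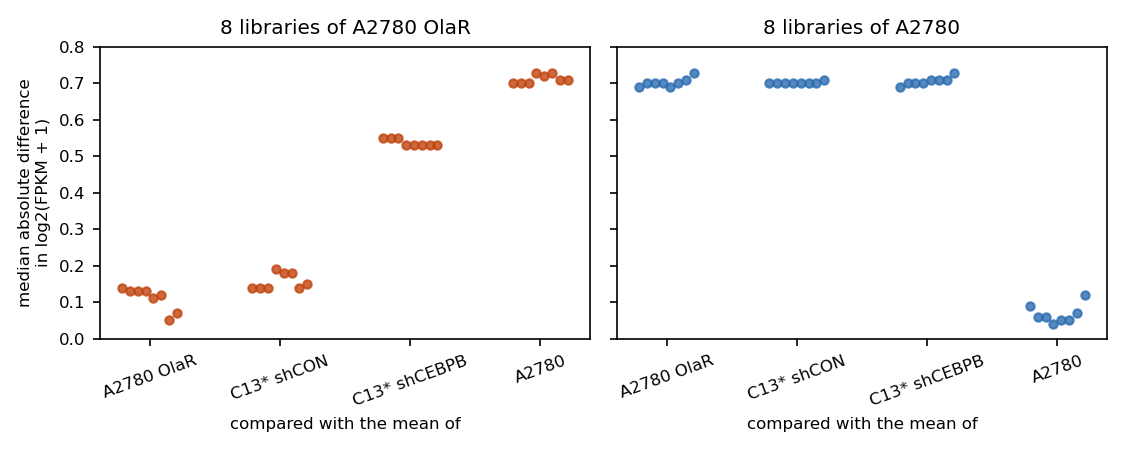
Median absolute difference in log2(FPKM + 1) over 12458 genes (vertical axis) between each library and the mean of each of 4 groups (horizontal axis), with 1 point per library and the library's own group mean included. The A2780 OlaR libraries sit at 0.14 to 0.19 from C13* shCON and at 0.70 to 0.73 from A2780, whereas the A2780 libraries sit at 0.69 or more from each of the other groups.

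Genes were called changed at a limma adjusted p under 0.05 together with a difference of at least 1 on log2(FPKM + 1), that is 2-fold on that scale. By this rule 4446 of 12458 genes (35.7%) changed, 1936 (15.5%) upward and 2510 (20.1%) downward in A2780 OlaR. The counts of each list below are to be read beside these shares. An adjusted p under 0.05 alone was met by 11190 genes (89.8%), and for 9231 genes (74.1%) the ranges of the groups were apart, without overlap, so neither of these separates a gene from the bulk. The median log2 fold change over tested genes was -0.12, and rescaling each library by its median ratio moved it by 0.12. The excess of falls over rises depended on the scaling. Median-ratio scaling gave 2191 higher and 2219 lower genes, quantile normalization 2127 and 2230, and a common sum 1820 and 2663. Because a gene that is silent in 1 group passes the filter only through the other, 789 tested genes passed through A2780 OlaR alone and 917 through A2780 alone, and these had to differ. Most lists below hold such genes, also where their number is not given. At least 16-fold changes were found for 183 higher and 150 lower genes. The former held 4.79% to 5.43% of summed FPKM in the A2780 OlaR libraries and 0.0406% to 0.046% in the A2780 libraries, and the latter 0.144% to 0.167% and 6.47% to 6.89%. Below, levels are the lowest, median and highest FPKM of 8 libraries, and changes are log2 fold changes on log2(FPKM + 1), A2780 OlaR minus A2780, with their SE. A number in parentheses after a gene is its log2 fold change. Each gene said to rise or fall had a limma adjusted p of at most 7.6e-07. Differences in cell composition and in RNA per cell cannot be told apart in these bulk libraries.

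Of 31 squamous and basal epithelial genes, 20 were tested, 18 rose and none fell, and the median log2 fold change was 4.90. Since 16 of the 20 passed the filter through A2780 OlaR alone and had to be higher there, this count and median only describe them. Of the 4 tested through both groups, SFN and KLK10 (4.45 ± 0.07) rose, and KRT10 (-0.33 ± 0.14) and PERP (0.42 ± 0.05) were not called. KRT5, a keratin of basal keratinocytes, had no signal in any A2780 library and stood at 1620, 1870 and 1990 FPKM in A2780 OlaR, while C13* shCON had a median of 1570 FPKM. TP63, the master regulator of basal epithelium, was at 0.0767, 0.146 and 0.174 FPKM in A2780 and 51.4, 55.0 and 62.6 FPKM in A2780 OlaR (log2 fold change 5.65 ± 0.05). Both genes passed the filter through A2780 OlaR alone, so their groups had to be apart. SFN, the 14-3-3 sigma protein of stratified epithelium, went from a median of 1.33 FPKM to 1100 FPKM (8.89 ± 0.14). KRT17 went from 0.200 to 462 FPKM and KRT14, the partner of KRT5 in basal filaments, from 0 to 35.4 FPKM. TRIM29 (6.36 ± 0.03) and DSG3 (4.56 ± 0.04) rose too, and KRT6A, listed at 0 throughout A2780, reached a median of 20.5 FPKM. Summed over the listed genes, FPKM were 79.0 to 84.0 in A2780 and 3740 to 4770 in A2780 OlaR.

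Desmosomes and hemidesmosomes anchor keratin filaments to neighbouring cells and to the basement membrane. Of their 17 tested genes, 14 rose and none fell, with 6 tested only through the resistant group. The hemidesmosome integrin ITGB4 was at 1.20, 1.27 and 1.45 FPKM in A2780 and a median of 105 FPKM in A2780 OlaR (5.52 ± 0.07). Periplakin, PPL, changed by the same 5.52 ± 0.05, and the transmembrane collagen COL17A1 by 5.09 ± 0.05. DSP, the linker desmoplakin, was present in A2780 at a median of 28.5 FPKM and reached 56.1 FPKM (0.96 ± 0.03), just short of the fold required.

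The promoters of 4 genes, each with the largest change in its list, are shown so that the regulatory letters can be read beside the values. These 4 were named for display and not drawn by a rule from all 65 lists, so their matches are no result about the lists. Each line is the 150 bases before the RefSeq transcript start in GRCh38.p14, all on the minus strand, and capitals mark matches on either strand to any of 5 motifs. The motifs were AP-1 (TGANTCA, held by 4.15% of 27195 RefSeq windows of this length), C/EBP (TTGCNNAA, 5.08%), the antioxidant response element of NRF2 (TGACNNNGC, 7.39%), TEAD (GGAATG, 7.09%) and the E-box read by ZEB and SNAI factors (CACCTG, 10.7%). The AP-1 and antioxidant motifs can overlap each other. A match is only a match of letters, and its absence here says nothing of a factor. The KRT5 window (chr12:52520395-52520544) held an E-box that starts at -130.
KRT5: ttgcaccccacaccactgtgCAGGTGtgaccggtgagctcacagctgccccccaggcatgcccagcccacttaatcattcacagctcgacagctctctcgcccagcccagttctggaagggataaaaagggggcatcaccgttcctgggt
The GPX2 window (chr14:64942746-64942895) held an E-box at -141 and an antioxidant response element at -122.
GPX2: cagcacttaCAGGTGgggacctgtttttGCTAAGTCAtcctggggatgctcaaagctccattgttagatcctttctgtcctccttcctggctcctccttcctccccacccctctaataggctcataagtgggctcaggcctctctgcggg
The MMP10 window (chr11:102780629-102780778) held an AP-1 match at -67.
MMP10: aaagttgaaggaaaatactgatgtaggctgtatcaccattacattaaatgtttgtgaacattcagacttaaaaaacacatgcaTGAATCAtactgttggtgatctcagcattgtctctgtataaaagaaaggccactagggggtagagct
The ANKRD1 window (chr10:90921088-90921237) held a TEAD match at -128 and an E-box at -116.
ANKRD1: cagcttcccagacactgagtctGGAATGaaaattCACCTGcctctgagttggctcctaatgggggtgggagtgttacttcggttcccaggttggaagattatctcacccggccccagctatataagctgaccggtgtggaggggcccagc

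Simple epithelial and junction genes moved in both directions. Of 30 tested genes, 21 rose and 4 fell, with a median of 3.62, and 14 were tested only through the resistant group. CDH1, which encodes E-cadherin, was at 0.00501, 0.0177 and 0.0745 FPKM in A2780 and 91.4, 97.0 and 107 FPKM in A2780 OlaR (6.61 ± 0.04). The simple keratins rose, KRT19 from 0.0403, 0.139 and 0.481 FPKM to 1590, 1880 and 2040 FPKM and KRT7, typical of ovarian carcinoma, from a median of 0.0507 to 9.80 FPKM. EPCAM rose from a median of 1.17 FPKM to 117 FPKM and KRT8 from 5.87 to 496 FPKM, while KRT18, the partner of KRT8 and already expressed in the parent at 81.3 FPKM, reached 292 FPKM. The placental cadherin CDH3 rose by 7.11 ± 0.05. The falls were of tight junction and mucin genes. CLDN1 fell from 106, 109 and 112 FPKM to 9.02, 11.4 and 12.3 FPKM (-3.20 ± 0.05). OCLN, occludin, fell from a median of 22.3 to 3.18 FPKM and MUC1 from 12.4 to 1.81 FPKM.

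Among regulators of the epithelial state, 14 of 17 tested genes were higher, none lower and 8 tested only through the resistant group. GRHL2, a grainyhead factor that maintains epithelial genes, was listed at 0 throughout A2780 and at 20.9, 22.1 and 23.2 FPKM in A2780 OlaR. ESRP1, a splicing factor of epithelial isoforms, rose from a median of 1.11 to 45.7 FPKM, and OVOL1, a repressor of mesenchymal genes, from 0.257 to 2.34 FPKM. FOXQ1 rose by 5.29 ± 0.08.

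Mesenchymal markers went mostly the other way, with 11 of 19 tested genes lower and 3 higher (median -1.62). Of the 19, 5 were tested only through A2780 and 2 only through the resistant group. VIM, the intermediate filament vimentin, fell from 784, 808 and 827 FPKM to 0.0857, 0.159 and 0.265 FPKM, and C13* shCON had a median of 10.1 FPKM. An antisense gene overlaps 1280 bases of VIM exons, and the sources do not say whether strand was used. ZEB1, a repressor of CDH1, fell from a median of 14.3 to 0.523 FPKM (-3.33 ± 0.05) and TWIST1 from 41.1 to 6.18 FPKM. The list did not move as a block. SNAI2, a repressor that basal epithelium also expresses, rose from 0.230, 0.597 and 0.793 FPKM to 11.5, 13.4 and 15.8 FPKM, fibronectin FN1 rose by 2.51 ± 0.04, and LOX by 1.60 ± 0.05. SNAI1 overlapped between the groups at medians of 4.89 and 5.25 FPKM (0.08 ± 0.07, limma adjusted p = 0.294). CDH2, N-cadherin, kept a median of 18.2 FPKM after a fall (-1.62 ± 0.05), and ZEB2 was below the filter in both lines.

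Matrix genes changed in both directions. Among 23 tested collagen chains, 13 fell and 6 rose, with 11 tested only through A2780. COL3A1 fell from 317, 364 and 373 FPKM to at most 0.0206 FPKM, and COL5A2 from a median of 432 to 0.668 FPKM; both are fibrillar chains. COL6A2, of the microfibrillar collagen, fell by 5.06 on the log2 scale. Those that rose were COL17A1 of hemidesmosomes, the basement membrane chains COL4A1 (3.69 ± 0.07), COL4A2 (3.11 ± 0.07) and COL4A6 (2.07), the fibrillar COL27A1 (2.05) and COL16A1 (2.68). COL18A1 (-2.17), also of basement membrane, fell. Laminins, which belong to basement membranes, had 4 of 8 tested chains higher and 3 lower. LAMB3 (5.72 ± 0.07) and LAMA3 (3.31 ± 0.04), subunits of the epithelial laminin that binds hemidesmosomes, rose, whereas LAMB2 fell from a median of 117 to 0.0810 FPKM, as did LAMC3 (-2.21) and LAMC1 (-1.09). Of 14 tested integrins, 7 rose and 4 fell. ITGA3, a laminin receptor, rose from 8.56 to 275 FPKM in the medians, and the fibronectin receptor ITGA5 fell from 73.9 to 0.882 FPKM. ITGA2B rose by 2.88 ± 0.05, and ITGAV (-2.97) and ITGA7 (-2.72) fell.

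Extracellular proteases were divided evenly, 8 higher and 8 lower of 25 tested. The interstitial collagenase MMP1 was at 516, 535 and 603 FPKM in A2780 and at most 0.0292 FPKM in A2780 OlaR. The stromelysins MMP10 and MMP3 had medians of 817 and 83.1 FPKM in the parent and were listed at 0 in all 8 resistant libraries, while C13* shCON had a median of 3.11 FPKM for MMP10. In the other direction, the membrane-bound MMP14 went from 2.32, 2.72 and 3.23 FPKM to 69.6, 81.4 and 92.4 FPKM. MMP28 rose by 5.51 ± 0.07 and the inhibitor TIMP3 by 3.97 ± 0.03. Of these 6 genes, MMP1, MMP3 and MMP10 passed the filter through A2780 alone and MMP28 and TIMP3 through A2780 OlaR alone, so their groups had to be apart.

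Actin and contractile genes had 13 falls and 4 rises among 34 tested. The smooth muscle proteins TAGLN (-6.92 ± 0.05), MYL9 (-4.88 ± 0.08) and CNN1 (-4.54 ± 0.05) fell, and TAGLN shares exonic bases with neighbouring genes. The cytoplasmic actin ACTG1 rose from a median of 403 to 1380 FPKM and the actinins ACTN1 and ACTN4 by 1.40 ± 0.04 and 1.29 ± 0.06. Among 24 tested S100 and annexin genes, 11 rose and 6 fell. S100A11 went from 3.12, 4.19 and 5.65 FPKM to 361, 423 and 434 FPKM, and S100A2, a TP63 target of basal cells, varied widely within A2780 OlaR at 138, 378 and 407 FPKM. ANXA8 rose from 0 to a median of 25.0 FPKM, whereas ANXA6 (-4.65), S100A4 (-4.48) and S100A1 (-3.38) fell.

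The Hippo pathway restrains the effector YAP, which drives targets through TEAD factors. Of 28 tested Hippo genes and targets, 9 fell and 5 rose, with a median of -0.58. ANKRD1, a classical YAP and TEAD target, fell from 588, 628 and 744 FPKM to 0.0215, 0.186 and 0.237 FPKM. CTGF fell from a median of 173 to 9.72 FPKM and CYR61 from 417 to 140 FPKM, whereas AMOTL2 (0.72) and AJUBA (0.58) were not called. The effectors also fell, YAP1 from 76.3 to 33.9 FPKM and TEAD1 from 54.2 to 11.2 FPKM, and so did the upstream kinase LATS2 (-2.91 ± 0.03). AMOTL1 (2.90 ± 0.03), FRMD6 (2.73 ± 0.05) and SAV1 (1.80 ± 0.05), which act upstream of YAP, rose.

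Aldehyde and carbonyl detoxification rests on several enzyme families. Of 14 tested aldehyde dehydrogenases, 5 rose and 1 fell. ALDH3A1, an isoform of corneal and squamous epithelium, was at 0.0269, 0.0706 and 0.184 FPKM in A2780 and 1200, 1480 and 1600 FPKM in A2780 OlaR. ALDH1A1, the retinaldehyde dehydrogenase used as a stem cell marker, went from 998, 1050 and 1130 FPKM to 0.116, 0.235 and 0.382 FPKM. ALDH1A3, another retinaldehyde dehydrogenase, rose from a median of 10.4 to 428 FPKM, and an antisense gene overlaps 1720 bases of its exons. ALDH3B1 rose by 2.06 ± 0.08. Of 11 tested aldo-keto and carbonyl reductases, 5 rose and 2 fell. AKR1B10 rose from 0, 0 and 0.0341 FPKM to 43.6, 46.4 and 50.1 FPKM, CBR1 by 6.16 ± 0.06 and AKR1C2 by 2.78 ± 0.05, while AKR1E2 (-2.93) and CBR4 (-1.16) fell.

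Genes of the NRF2 pathway had 14 rises and 3 falls among 30 tested, with a median of 0.93. The glutathione peroxidase GPX2, whose promoter window held an antioxidant response element, went from 0, 0.218 and 0.700 FPKM to 70.9, 77.0 and 81.3 FPKM. GCLC, the catalytic subunit of glutathione synthesis, rose from a median of 15.5 to 64.2 FPKM and NQO1 from 148 to 375 FPKM. GCLM, the modifier subunit, was at 10.9 and 21.1 FPKM (0.81 ± 0.07) and was not called. UGT1A6 was listed at 0 throughout A2780 and had a median of 13.9 FPKM in A2780 OlaR, though UGT1A isoforms share exons. The list was not uniform, since HMOX1 fell from 27.5 to 5.98 FPKM, TXNRD1 from 344 to 170 FPKM, and MAFG (-1.25) fell too. The factor itself, NFE2L2, overlapped between the groups at medians of 37.6 and 43.1 FPKM (0.18 ± 0.08, limma adjusted p = 0.0365). KEAP1, its inhibitor, was at 27.4 and 45.1 FPKM (0.68 ± 0.08) and was not called.

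Of 11 tested glutathione transferases, 4 rose and 2 fell. GSTP1 rose from a median of 426 to 1260 FPKM, MGST2 by 4.76 ± 0.05 and GSTO2 by 2.62 ± 0.07. GSTM4 (-3.8) and GSTA4 (-3.43) fell. GPX1, a selenium-dependent peroxidase and a member of the 15 largest rises, went from 0.0393, 0.187 and 1.09 FPKM to 327, 432 and 504 FPKM. By annotation it shares 572 exonic bases on the same strand with other genes. Metallothioneins, which bind zinc and other metals, had 2 rises and 1 fall among 5 tested. MT2A rose from 168 to 434 FPKM in the medians, MT1F rose by 2.93 ± 0.07 and MT1B fell by 1.84 on the log2 scale; these near-identical copies may share reads. Of 17 tested cytochromes P450, 6 fell and 3 rose. The 3 rises were of genes that passed the filter through A2780 OlaR alone and had to be higher there. Of the falls, 2 were of genes that passed through A2780 alone and had to be lower, CYP2D6 among them. The retinoic acid hydroxylases CYP26B1 and CYP26A1 fell from medians of 20.8 and 13.9 FPKM to 1.12 and 2.24 FPKM, CYP2D6 fell by 1.41 on the log2 scale, and CYP4F11, CYP4F3 and CYP4F12 rose by 3.90 ± 0.05, 2.54 ± 0.04 and 1.61 ± 0.06.

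The drug target itself was higher. Of 21 tested PARP family and poly(ADP-ribose) hydrolase genes, 2 rose and none fell, and the median was 0.10. PARP1, the main target of olaparib, went from 48.6, 51.8 and 52.9 FPKM to 129, 138 and 143 FPKM (1.40 ± 0.03), and C13* shCON had a median of 122 FPKM. PARP12, an interferon-induced mono-ADP-ribosyltransferase, rose from 0 to a median of 7.72 FPKM. PARP2, the second target, had medians of 38.9 and 33.5 FPKM (-0.19 ± 0.04), and PARG, the hydrolase whose loss opposes PARP inhibitors, 6.20 and 7.87 FPKM (0.29 ± 0.05). The libraries of both groups overlapped for PARP2 and PARG, and neither was called.

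Drug transporters were mixed, with 5 of 22 tested ABC genes higher, 4 lower and a median of -0.01. ABCC3 rose from 0.644, 0.879 and 1.01 FPKM to 46.9, 52.9 and 59.0 FPKM and ABCC2 by 3.42 ± 0.07. ABCG2, the breast cancer resistance protein, rose from a median of 2.30 to 12.3 FPKM (2.06 ± 0.05). ABCB1, which encodes P-glycoprotein, an exporter of olaparib, did not reach the filter, with 0 to 0.0250 FPKM in A2780 and 0.0960 to 0.164 FPKM in A2780 OlaR. ABCC1 had medians of 25.3 and 29.1 FPKM (0.22 ± 0.03) and was not called. ABCC6 (-2.86), ABCA3 (-1.53) and ABCA7 (-1.41) fell.

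CEBPB, the factor the study centres on, was nearly level in RNA in these libraries. The study itself reports a pronounced increase in the resistant strain, citing western blots of the protein and RT-qPCR of the RNA. Here CEBPB was at 85.6, 99.7 and 111 FPKM in A2780 and 97.1, 113 and 127 FPKM in A2780 OlaR, and the groups overlapped. The log2 fold change was 0.16 ± 0.06 with a limma adjusted p of 0.0202 (exact permutation p = 0.0314, two-sided), and 89.8% of tested genes were under the 0.05 threshold. The sign turned to -0.06 in replicates 1 to 3 alone. CEBPA (-0.22 ± 0.07) and CEBPD (-0.01 ± 0.07) overlapped as well. Of 6 tested family members, none rose and 2 fell, DDIT3 from 84.3 to 18.4 FPKM and CEBPG from 72.4 to 20 FPKM in the medians. Both of these are also factors of the amino acid stress response.

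AP-1 subunits changed in both directions, with 5 of 12 tested genes higher and 4 lower. FOSL1 rose from 7.48, 8.81 and 9.64 FPKM to 187, 196 and 203 FPKM, FOSB by 2.46 ± 0.05 and JUNB by 2.39 ± 0.10. BATF3 (-2.86), ATF3 (-2.69) and JUND (-1.59) fell. The balance of rises over falls in this list turned in replicates 1 to 3 alone. ERK feedback genes had 8 rises and 6 falls among 23 tested. The phosphatases DUSP5 and DUSP4 rose by 3.56 ± 0.05 and 3.11 ± 0.05 and the immediate early gene EGR1 by 2.80 ± 0.05. DUSP6, another ERK phosphatase, went from 135, 139 and 143 FPKM to 16.1, 17.1 and 18.5 FPKM, and SPRY1 (-3.79) and ETV1 (-3.42) fell.

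Of 13 tested genes of the EGF family, with ligands, receptors and inhibitors, 7 rose and 3 fell. Of the 7 rises, 5 were of genes tested only through the resistant group that had to be higher there, NRG1, EREG and AREG among them. The ligands NRG1 (4.50 ± 0.05), EREG (3.64 ± 0.08) and AREG (3.48 ± 0.12) went from medians of at most 0.229 FPKM to 25.8, 12 and 10.1 FPKM. EGFR rose from 26.0, 28.0 and 28.7 FPKM to 54.1, 57.3 and 65.3 FPKM (1.03 ± 0.04), and the inhibitor ERRFI1 fell from a median of 186 to 25.7 FPKM. ERBB2 overlapped at medians of 32.9 and 32.5 FPKM (0.01 ± 0.06). NRG4 (-1.62) and LRIG1 (-1.22) fell.

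Other receptor tyrosine kinases had 8 rises and 11 falls among 26 tested, with 4 tested only through the resistant group and 7 only through A2780. MET, the receptor of hepatocyte growth factor, rose from 1.98, 2.07 and 2.33 FPKM to 39.2, 43.5 and 50.5 FPKM, and its relative MST1R rose by 5.08 ± 0.05. Its ligand HGF, expressed by A2780 at 170, 184 and 208 FPKM, was at most 0.0149 FPKM in A2780 OlaR. EPHA1 rose by 3.36 ± 0.06. The collagen receptor DDR2 fell from a median of 55.6 to 0.0298 FPKM and EPHA5 from 14 FPKM to 0, and ROR2 (-4.16) fell too. Of 9 tested genes of insulin-like growth factor signalling, 2 rose and 4 fell, with the binding protein IGFBP3 at 202 and 41.4 FPKM in the medians (-2.27 ± 0.03). IGF2R (-1.87) and IGFBP2 (-1.82) fell, and IRS2 and IGFBP6 rose by 2.18 ± 0.06 and 1.03 ± 0.13.

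Genes of the TGF-beta and BMP pathways had 17 falls and 9 rises among 43 tested. Their ligand TGFB2 fell from 20.9, 22.3 and 24.0 FPKM to 0.933, 1.30 and 1.5 FPKM, and the BMP inhibitor NOG fell by 3.74 on the log2 scale. BMP4 rose from a median of 0.291 to 18.9 FPKM and SMAD3 from 7.26 to 30.3 FPKM. The target genes were divided, with ID1 at 103 and 1100 FPKM in the medians (3.42 ± 0.05), ID2 at 57.2 and 4.74 FPKM (-3.32 ± 0.05), and the secreted TGFBI rising by 6.18 ± 0.03.

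WNT genes were mixed, 13 higher and 18 lower of 51 tested, among ligands and receptors alike. Of the 51, 10 were tested only through the resistant group and 10 only through A2780, so these had to differ. The former include WNT7B, WNT7A and WLS. The ligands WNT7B and WNT7A rose from medians of 0.170 and 0 FPKM to 23 and 12.3 FPKM, and WLS, which carries WNT ligands to the surface, rose from 0.0495, 0.181 and 0.266 FPKM to 35.2, 39.1 and 40.9 FPKM. The ligands WNT11 (-3.16) and WNT10B (-2.89) fell. The receptor FZD8 fell from a median of 45.4 to 1.40 FPKM, and FZD6 (1.45) and LRP5 (1.12) rose. AXIN2, a target used as a readout of beta-catenin, fell from 4.57 to 0.181 FPKM, and the inhibitor NKD2 from 11.7 FPKM to 0. Of 31 tested Notch genes, 8 rose and 7 fell. NOTCH1 (2.55 ± 0.05), its ligand JAG1 (3.81 ± 0.04), DLK2 (2.88 ± 0.08) and the target HES1 (2.16 ± 0.04) rose, whereas NOTCH3 fell from 22.2, 25.4 and 28.6 FPKM to 3.22, 3.90 and 4.55 FPKM, with falls of DNER (-2.07) and HES6 (-2.04). Hedgehog genes, which pattern embryonic tissues, had 4 falls and 1 rise among 9 tested. The target and effector GLI1 fell from a median of 13.6 to 0.163 FPKM, with falls of the receptors PTCH1 (-2.37) and BOC (-2.36), while GLI3 rose by 2.08 ± 0.03.

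Inflammatory genes moved in both directions. Of 28 tested cytokines and NF-kB response genes, 14 rose and 9 fell, with a median of 1.10 and 10 tested only through the resistant group. IL1A and IL1B, the interleukin-1 cytokines stored by keratinocytes, went from at most 0.0571 and 0.0394 FPKM to 106, 114 and 147 FPKM and 108, 114 and 126 FPKM. TNFAIP2 rose by 4.91 ± 0.07. The death ligand TNFSF10 fell from 52.7, 61.3 and 72.4 FPKM to 2.13, 2.62 and 3.53 FPKM, and the cytokines IL32 (-3.52) and IL11 (-3.21) fell. Ligands read by T and NK cells had 4 rises and 6 falls among 19 tested. The NKG2D ligand ULBP1 fell from a median of 25.4 to 1.02 FPKM, and CD70 (-2.76) and NCR3LG1 (-2.15) fell, and NECTIN1, NECTIN3 and LGALS9 rose by 3.67 ± 0.06, 2.04 ± 0.08 and 2 ± 0.06.

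Interferon-stimulated genes also moved in both directions, with 13 rises and 9 falls among 38 tested and a median of 0.20. TRIM22 (3.85 ± 0.05), IFI44 (2.59 ± 0.07) and IRF1 (2.09 ± 0.05) rose, the last with 3290 exonic bases shared with another gene. ISG15, a ubiquitin-like modifier, fell from 73.8, 80.0 and 89.5 FPKM to 8.97, 10.8 and 12.2 FPKM, and ISG20 (-3.25) and GBP2 (-2.62) fell. MHC class I presentation had 5 rises and 3 falls among 21 tested. The immunoproteasome subunit PSMB8 went from 0.207, 0.290 and 0.723 FPKM to 62.0, 75.1 and 80.3 FPKM. HLA-F rose by 4.98 ± 0.10, and HLA-B (-1.28), HLA-C (-1.02) and the transactivator NLRC5 (-1.12) fell. Reads of HLA genes can be split among near-identical copies and alleles. Of 13 class II genes only 3 were tested, and HLA-DMA and HLA-DOB rose by 1.5 ± 0.07 and 1.26 ± 0.07.

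Cell cycle genes had more rises than falls. Of 31 tested G1/S genes, 13 rose and 5 fell (median 0.73), and of 43 tested genes of G2/M and mitosis, 14 rose and 1 fell (median 0.67). The proliferation marker MKI67 went from 13.4, 13.9 and 14.4 FPKM to 45.1, 49.4 and 58.5 FPKM. AURKA, ANLN and CDC25B, which act at mitotic entry and cytokinesis, rose by 1.88 ± 0.03, 1.97 ± 0.08 and 1.94 ± 0.03, and ECT2 fell by 1.01 on the log2 scale. Inhibitors of the cycle were among the largest changes of the G1/S list. CDKN2A, which encodes p16 and p14ARF, rose from 24.5, 25.4 and 31.3 FPKM to 329, 413 and 477 FPKM and CDKN1A, which encodes p21, from a median of 13.6 to 118 FPKM. CCND2 rose by 2.67 ± 0.04. CDKN1C (-1.86), E2F5 (-1.47) and CDKN1B (-1.43) fell, and CCNE1 was at 9.81 and 8.51 FPKM with overlap (-0.21 ± 0.05).

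MYC rose from 32.5, 34.5 and 35.6 FPKM to 132, 141 and 151 FPKM (2.02 ± 0.03), while the MYC network as a list had 3 rises and 3 falls among 12 tested. MLX and MGA rose by 1.12 ± 0.04 and 1.11 ± 0.05, and MLXIPL (-2.44), MYCL (-1.42) and MNT (-1.18) fell. MYCN was at or near 0 in both lines. The cell cycle inhibitor CDKN1A and the death receptor TNFRSF10A (4.03 ± 0.06) rose, and MDM2 (-1.26), SESN2 (-2.24) and TNFRSF10D (-3.30) fell. Of 32 tested BCL2 family, caspase and IAP genes, 4 rose and 8 fell. BCL2L1, which encodes the survival factor BCL-XL, rose from 22.6, 27.0 and 29.0 FPKM to 133, 160 and 175 FPKM, while BCL2 fell from a median of 3.68 to 0.724 FPKM. The inflammatory caspases CASP1 and CASP4 rose by 4.73 ± 0.05 and 4.68 ± 0.08, and BMF (-2.04), BIRC3 (-1.98) and XIAP (-1.89) fell.

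Central metabolism was followed in several lists. Of 42 tested glycolysis and hypoxia genes, 14 rose and 7 fell (median 0.34). The glucose transporter SLC2A3 fell from 253, 264 and 282 FPKM to 0.0108, 0.0319 and 0.0780 FPKM, and so did the muscle enolase ENO3 (-3.43) and the carbonic anhydrase CA12 (-2.1). CA9, a carbonic anhydrase induced by hypoxia, rose from a median of 0.128 to 27.3 FPKM, EPAS1, which encodes HIF2 alpha, from 0.714 to 21.5 FPKM, and HK1 by 1.98 ± 0.05. Nuclear-encoded respiratory chain subunits had 5 rises and 4 falls among 78 tested, and 69 were not called. That balance turned when libraries were scaled to a common sum. ATP5G1 (2.06 ± 0.05) and SDHA (1.49 ± 0.05) rose and COX7A2L fell from a median of 201 to 44.3 FPKM. NDUFB7 rose by 1.21 ± 0.07, and NDUFA1 (-1.34) fell.

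Serine, one-carbon and amino acid genes had 18 falls and 9 rises among 39 tested. ASS1, the arginine synthesis enzyme, rose from 0, 0.118 and 0.328 FPKM to 119, 129 and 134 FPKM, PYCR1 by 4.33 ± 0.07, and glutamine synthetase GLUL from 0 in all A2780 libraries to a median of 12.2 FPKM. The transsulfuration enzyme CBS fell from 119, 142 and 159 FPKM to 13.7, 15.7 and 18.4 FPKM. MTHFD1L (-2.74) and the arginine carrier SLC7A2 (-3.71) fell. Of 20 tested genes of NAD, the substrate of PARP enzymes, 4 rose and 5 fell, a balance that turned under median-ratio scaling. NAPRT, which makes NAD from nicotinic acid, rose from 1.02, 1.83 and 2.06 FPKM to 71.2, 89.8 and 102 FPKM, and QPRT, which makes it from quinolinate, fell from 31.7, 35.4 and 43.3 FPKM to 0, 0.0449 and 0.0830 FPKM. NADSYN1 and NMNAT3 rose by 1.90 ± 0.05 and 1.42 ± 0.07, and the deacetylases SIRT1 (-1.46) and SIRT3 (-1.52) fell. Cholesterol and fatty acid genes had 7 rises and 8 falls among 44 tested, a balance that also turned under median-ratio scaling. These shares, 15.9% and 18.2%, lay near the 15.5% and 20.1% of all tested genes. SQLE and ACSL5 rose by 1.60 ± 0.04 and 1.84 ± 0.04, and SCD (-2.08), STARD4 (-1.93) and ACACB (-1.56) fell.

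Of 31 tested genes of the integrated stress and unfolded protein responses, 14 fell, none rose and 17 were not called, with a median of -0.82, and none was tested through 1 group alone. CHAC1, a glutathione-degrading target of ATF4, fell from 61.1, 68.6 and 72.8 FPKM to 2.45, 3.03 and 3.85 FPKM. ATF3 fell from a median of 55.6 to 7.71 FPKM, SESN2 from 43.2 to 8.37 FPKM, and DDIT3 as above. HSPA5, the endoplasmic reticulum chaperone, was at 457 and 403 FPKM in the medians (-0.16 ± 0.03) and was not called.

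Cytosolic chaperones had 10 rises and 5 falls among 36 tested. The small heat shock protein HSPB1 rose from 3.33, 4.25 and 6.35 FPKM to 774, 911 and 997 FPKM, and C13* shCON had a median of 541 FPKM. DNAJA4 and HSPA2 rose by 3.83 ± 0.04 and 3.28 ± 0.06, while the small heat shock proteins CRYAB (-3.99) and HSPB8 (-2.21) and the co-chaperone DNAJB2 (-2.21) fell. Of 85 tested cytosolic ribosomal protein genes, 16 rose and 2 fell (median 0.34), with RPL7A at medians of 787 and 2650 FPKM. RPL36AL and RPL17 rose by 1.89 ± 0.07 and 1.61 ± 0.06, and RPL22L1 (-2.13) and RPS26 (-1.13) fell. These genes have many processed pseudogenes that can take their reads. Proteasome genes had 6 rises and 4 falls among 46 tested. The immune subunits PSMB8, PSMB10 (1.96 ± 0.10) and PSMB9 (1.68 ± 0.11) rose, and the constitutive PSMD14 (-1.36), PSMD4 (-1.15) and PSMB4 (-1.13) fell.

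HOX genes specify position along the body axis. Of 37 tested genes, 23 fell and 6 rose, with a median of -1.64, and 8 were tested only through A2780 and 5 only through A2780 OlaR. HOXC6 went from 28.6, 29.4 and 30.7 FPKM to 1.06, 1.34 and 1.42 FPKM, and HOXC8 (-3.21) and HOXA11 (-3.1) fell. By cluster, 6 of 11 tested genes fell and 1 rose in HOXA, 7 of 9 fell and none rose in HOXB, 5 of 9 fell and 2 rose in HOXC, and 5 of 8 fell and 3 rose in HOXD. The 6 rises were of HOXA7, HOXC11, HOXC12, HOXD9, HOXD10 and HOXD11, with HOXD11 at 9.92, 12.3 and 13.9 FPKM against at most 0.222 FPKM in A2780, HOXD10 at a median of 8.93 FPKM and HOXC12 at 3.06 FPKM. HOXD10 and HOXD11 share 452 exonic bases on the same strand.

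**Figure D2:**
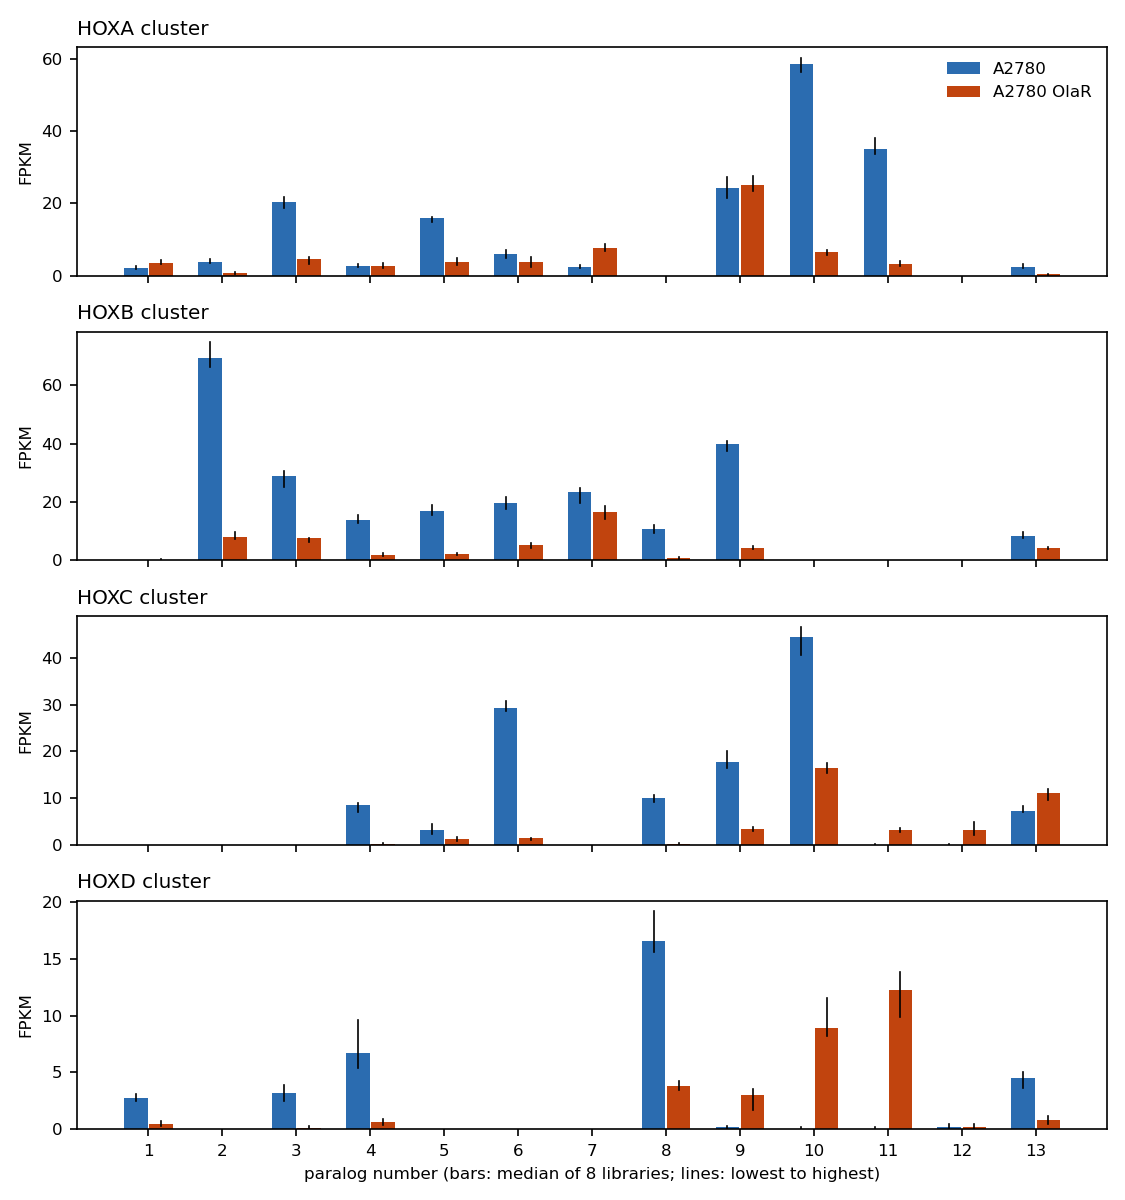
Median FPKM of each HOX gene by cluster and paralog number (horizontal axis) in 8 A2780 and 8 A2780 OlaR libraries, with lines from the lowest to the highest library. HOXC6 drops from 29.4 to 1.34 FPKM, and HOXD10 and HOXD11, near 0 in A2780, reach 8.93 and 12.3 FPKM in A2780 OlaR.

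SOX, FOX, GATA, PAX and TBX factors had 36 falls and 17 rises among 73 tested (median -0.98). Of the 73, 15 were tested only through A2780 and 10 only through the resistant group. SOX15, SOX7 and FOXQ1 rose, the former pair by 4.49 ± 0.10 and 4.41 ± 0.04, and SOX9, a progenitor factor of epithelia, went from 0, 0.00605 and 0.152 FPKM to 6.29, 7.41 and 8.21 FPKM. The homeobox factors MEIS3 (-4.33 ± 0.06), LHX9 (-3.71 ± 0.05) and MEIS1 (-3.36 ± 0.04) fell. SOX2 rose only to a median of 1.5 FPKM. Neural and axon guidance genes had 17 falls and 5 rises among 30 tested, with 12 tested only through A2780. SLIT2, a guidance ligand, fell from 90.8, 95.4 and 101 FPKM to 0 in all 8 resistant libraries, its receptor ROBO1 from a median of 39.5 to 0.655 FPKM, and the neuronal microtubule protein MAP2 from 227 to 1.69 FPKM. NTN4, PLXNA2 and NRP2 rose by 4.33 ± 0.05, 4.12 ± 0.04 and 3.05 ± 0.03.

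Ovarian and Mullerian markers were divided, 10 higher and 9 lower of 22 tested, and the sources' label of an ovarian carcinoma was checked against them. Of the 22, 7 were tested only through the resistant group and 4 only through A2780. WFDC2, which encodes the serum marker HE4, rose from 0, 0 and 0.0524 FPKM to 37.3, 40.2 and 46.4 FPKM, and mesothelin MSLN from a median of 3.16 to 27.1 FPKM. PAX8, the Mullerian lineage factor, was at 0.590 FPKM in A2780 and 5.94 FPKM in A2780 OlaR, and ESR1 at 0 and 2.24 FPKM. FOLR1, the folate receptor, fell from 14 to 0.866 FPKM, and PAX2 (-2.97) fell. BCAM rose by 2.45 ± 0.06. MUC16 (CA125), WT1 and SOX17 did not pass the filter. The parent thus had PAX8, WFDC2, WT1, SOX17, MUC16 and ESR1 under 1 FPKM in every library. It expressed FOLR1 and MSLN, at medians of 14 and 3.16 FPKM. In A2780 OlaR, WT1, SOX17 and MUC16 did not pass the filter either, and FOLR1 had a median of 0.866 FPKM. PAX8, WFDC2, ESR1 and MSLN had medians above 1 FPKM there.

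Oncofetal and stem cell genes had 7 falls and 3 rises among 15 tested. LIN28B, a repressor of let-7, fell from 5.90, 6.46 and 7.90 FPKM to 0 in all 8 resistant libraries, IGF2BP3 from a median of 37.3 to 3.08 FPKM, HMGA2 from 36.0 to 13.8 FPKM, and SALL2 (-3.24) fell. CD44, the hyaluronan receptor, rose from at most 0.00969 FPKM to 56.4, 60 and 70.3 FPKM and CRABP2 by 3.25 ± 0.06. Only 5 of 95 cancer-testis genes were tested, of which 4 fell and 1 rose. The 4 passed the filter through A2780 alone and the 1 through A2780 OlaR alone, so these directions were set by the filter. PRAME fell from 62.2, 64.4 and 65.5 FPKM to 0 in all 8 resistant libraries, MAGEA6 from a median of 1.98 FPKM to 0 in the same libraries, SPANXA2 (-2.17) fell, and DDX43 rose by 2.59 ± 0.04. Among 15 tested imprinted genes, 5 rose and 4 fell. MEST rose from 0, 0.0400 and 0.0603 FPKM to 29.4, 32.3 and 36.2 FPKM, BLCAP and PHLDA2 by 2.43 ± 0.03 and 1.65 ± 0.07, and GRB10 (-4.03) and NLRP2 (-3.52) fell.

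Clustered families and chromatin genes followed. Of 507 zinc finger genes named ZNF, 415 were tested, 88 fell and 34 rose, with a median of -0.42. The share that fell was 21.2%, near the 20.1% of all tested genes, and the share that rose was 8.19% against 15.5%. ZNF467 fell from a median of 71.9 to 0.154 FPKM and ZNF711 from 17.5 FPKM to 0 in all 8 resistant libraries, and ZNF32 (-3.82) fell, while ZNF488, ZNF512 and ZNF22 rose by 4.34 ± 0.05, 3.92 ± 0.04 and 3.18 ± 0.06. Only 6 of 53 clustered protocadherins were tested, of which 5 fell and 1 rose. Of these 6, 4 passed the filter through A2780 alone and 1 through A2780 OlaR alone, so those had to differ. PCDHAC2 (-2.51), PCDHB2 (-2.30) and PCDHGC3 (-1.82) fell, and PCDHGA10 rose by 1.27 ± 0.06, though isoforms of a cluster share exons. SWI/SNF genes had 2 rises and 5 falls among 25 tested. The ATPase SMARCA2 rose from 5.92, 6.48 and 6.97 FPKM to 29.6, 30.8 and 33.4 FPKM and BRD9 by 1.46 ± 0.03, and SMARCD3 (-3.35), PHF10 (-1.82) and ARID2 (-1.71) fell. DNA methylation and Polycomb genes had 5 rises and 12 falls among 44 tested. TET1 fell from a median of 4.13 to 0.0762 FPKM, and the Polycomb reader CBX8 (-2.89) fell, while UHRF1, JARID2 and MBD2 rose by 1.55 ± 0.06, 1.28 ± 0.04 and 1.08 ± 0.07. Tubulins had 4 rises and 6 falls among 15 tested, a balance that turned under median-ratio scaling. TUBB4B, TUBA4A and TUBA1C rose by 2.57 ± 0.03, 2.45 ± 0.04 and 1.49 ± 0.04, and TUBB4A (-4.52), TUBA1A (-4.07) and TUBE1 (-1.66) fell.

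By chromosome, genes on 13 and 20 stood above the rest and those on 19, X and 10 below. The median log2 fold change was 0.59 over 199 tested genes on chromosome 13, where 32.7% rose and 12.1% fell, and 0.58 over 319 genes on chromosome 20, where 28.2% rose and 12.5% fell. On chromosome 19 it was -0.36 over 932 genes, with 26.7% lower, on chromosome X -0.35 with 25.5% lower, and on chromosome 10 -0.34 with 29.8% lower. DNA copy number was not measured here, and its part in these values was not tested.

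**Figure D3:**
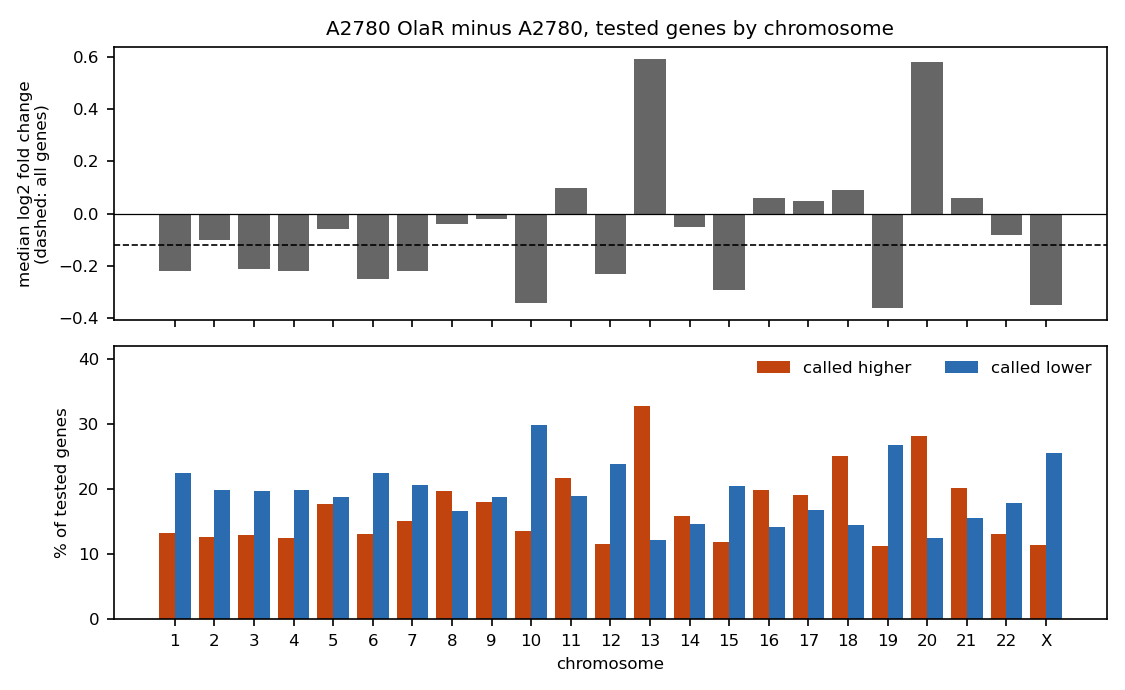
Median log2 fold change of tested genes (top, vertical axis, dashed line at the median of tested genes) and percentage of tested genes called higher or lower (bottom, vertical axis) by chromosome (horizontal axis), A2780 OlaR against A2780. Chromosomes 13 and 20 reach 0.59 and 0.58, and chromosome 19 is lowest at -0.36.

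Markers of other cell types were checked. Of 12 immune genes, 2 were tested. PTPRC, which encodes the leukocyte antigen CD45, was at 75.7, 83.5 and 103 FPKM in A2780 and at most 0.00631 FPKM in A2780 OlaR, and CD68, a lysosomal protein, rose from a median of 2.20 to 41.5 FPKM. Of 7 endothelial genes, 2 were tested, with CDH5 rising by 1.28 ± 0.04 and ESAM at -1.28 ± 0.07. Of 8 fibroblast genes, 5 were tested and 5 fell, with a summed level of 355 to 411 FPKM in A2780 and 3.71 to 5.16 FPKM in A2780 OlaR, and DCN and LUM were listed at 0 in all 8 resistant libraries. Of the 5 falls, 4 were of genes that passed the filter through A2780 alone and had to be lower in A2780 OlaR. COL3A1 alone held 317 to 373 FPKM in A2780, most of the summed level. The fibroblast genes overlap the collagen list, and their part in the collagen and mesenchymal falls was not tested. Among 10 housekeeping genes, 2 rose and 2 fell, GAPDH (1.23 ± 0.03), SDHA, GUSB (-1.28 ± 0.04) and TBP (-1.01 ± 0.05), and ACTB was at 3540 and 2450 FPKM in the medians (-0.51 ± 0.03).

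Further members of the 15 largest rises and 15 largest falls stood outside these lists or are added here. The transcription factor ZBTB7C was at 0, 0 and 0.0112 FPKM in A2780 and 479, 519 and 555 FPKM in A2780 OlaR. SYT8, FXYD3, PDLIM1 and ADIRF, and the squamous genes KRT13 and LY6D, had medians of 342, 298, 253, 163, 319 and 154 FPKM in A2780 OlaR. In A2780 none of the 6 exceeded the 1.69 FPKM of PDLIM1 in any library, and ADIRF and LY6D were listed at 0. MFGE8, a secreted protein that bridges dying cells to phagocytes, fell from 2800, 3130 and 3360 FPKM to 13.5, 15 and 16.2 FPKM. HAPLN3 fell from a median of 234 to 1.37 FPKM and ZPLD1 from 131 to 0.0853 FPKM, and SH3BGRL from 97.5 FPKM to 0 in all 8 resistant libraries.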

How the data were processed

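Poly(A) RNA of 31 libraries was sequenced. The deposited table gives FPKM per gene, made by the authors from paired reads aligned with TopHat to hg38 and counted with HTSeq; the submitters' processing notes also name FastQC and edgeR, and the tool behind the FPKM, the annotation and the use of strand are not given in the sources used here. Of 19225 rows, 4 with a repeated symbol were left out, and 23 symbols had been turned into dates. FPKM carry no read totals. The steps of 70 low genes gave relative depths of 0.915 to 1.17 in A2780 OlaR and 0.876 to 1.14 in A2780.

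Tests used limma 3.58.1 (R 4.3.3) on log2(FPKM + 1) with Benjamini-Hochberg adjustment over 12458 genes, after a test on simulated data, and exact two-sided permutation tests over 12870 splits, whose smallest p is 0.000155. The log scale with a pseudocount of 1 understates changes of low genes. The 65 lists and the genes named were chosen with earlier results of these data known. Named genes were the 15 largest rises and falls, up to 3 of each per list, fixed regulators, PARP and ABC genes and cell type markers, and members that were not called. Some of these genes, and the list built around 1 of them, are not reported here. CYR61, TEAD1, GCLC, NQO1, EGFR, SMAD3, AXIN2, HES1, MKI67, MDM2, BCL2, HOXA7, HOXC11, HOXD9, COL4A6, COL27A1, COL16A1, COL18A1, KLK10, KRT10, PERP, AMOTL2, AJUBA, WNT11, WNT10B, FZD6 and LRP5 were added after their values were seen. Exonic overlaps were taken from GENCODE 44, which held 94.9% of the symbols, and promoters from RefSeq. The other settings tried were scalings, filters, pseudocount, subsets of replicates, a replicate block and other tests.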

Additional observations from a re-analysis of the deposited data

Results flagged for a closer look

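For each named gene, the 8 libraries of a group were examined for a highest or lowest FPKM that stood apart from the others, by Dixon's ratio at its critical value for 8 values. Of 763 such groups of values, 62 held such a library. Chance gives about 1 in 20 only where the values are normally distributed. Where the other libraries of a group had no signal for a gene, any trace in the remaining library was bound to be flagged. The 62 therefore cannot be read as an excess over chance.

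In A2780, a lone library had signal for a gene listed at 0 in the other 7: KRT14 at 0.0166 FPKM in replicate 3, AKR1B10 at 0.0341 FPKM in replicate 3, CBR1 at 0.0539 FPKM in replicate 2, MYCN at 0.00856 FPKM in replicate 2, TNFRSF10A at 0.0272 FPKM in replicate 1, CASP1 at 0.0679 FPKM in replicate 4, WFDC2 at 0.0524 FPKM in replicate 4, ESR1 at 0.0153 FPKM in replicate 1, CD44 at 0.00969 FPKM in replicate 2, ZNF512 at 0.0166 FPKM in replicate 4, CDH5 at 0.0131 FPKM in replicate 3 and ZBTB7C at 0.0112 FPKM in replicate 1. In A2780 OlaR, a lone library had signal for a gene listed at 0 in the other 7: HGF at 0.0149 FPKM in replicate 3, COL6A2 at 0.00736 FPKM in replicate 6, NKD2 at 0.0994 FPKM in replicate 6, NLRP2 at 0.00817 FPKM in replicate 7 and PTPRC at 0.00631 FPKM in replicate 3. Replicate 1 of A2780 stood above the rest for COL4A1 at 0.0418 FPKM (others 0 to 0.0122), CDKN1C at 12.2 FPKM (others 8.76 to 9.75) and PDLIM1 at 1.69 FPKM (others 0.523 to 1.03). Replicate 2 of A2780 stood above the rest for GPX1 at 1.09 FPKM (others 0.0393 to 0.392), MT1F at 0.287 FPKM (others 0 to 0.128), ROR2 at 19.3 FPKM (others 15.9 to 17.5) and TGFBI at 0.0472 FPKM (others 0 to 0.0211). Replicate 3 of A2780 stood below the rest for ROBO1 at 37.6 FPKM (others 39.1 to 40.3). Replicate 5 of A2780 stood above the rest for FOXQ1 at 0.14 FPKM (others 0 to 0.0571), LRIG1 at 6.25 FPKM (others 5.4 to 5.8) and WNT7A at 0.0947 FPKM (others 0 to 0.0282). Replicate 6 of A2780 stood below the rest for FOSL1 at 7.48 FPKM (others 8.65 to 9.64) and PAX8 at 0.306 FPKM (others 0.501 to 0.673). Replicate 7 of A2780 stood above the rest for GSTO2 at 4.47 FPKM (others 2.5 to 3.35), AREG at 0.227 FPKM (others 0 to 0.0929), HOXC12 at 0.102 FPKM (others 0 to 0.031), WT1 at 0.0869 FPKM (others 0 to 0.0391) and FXYD3 at 0.277 FPKM (others 0 to 0.114). Replicate 8 of A2780 stood above the rest for MMP10 at 900 FPKM (others 783 to 837), MMP1 at 603 FPKM (others 516 to 548), MMP3 at 97.8 FPKM (others 78.5 to 87.5), NQO1 at 159 FPKM (others 142 to 149), GSTA4 at 46.7 FPKM (others 38.0 to 41.2), RPL22L1 at 113 FPKM (others 73.0 to 87.8), PSMD14 at 158 FPKM (others 137 to 147) and HMGA2 at 41.2 FPKM (others 34.8 to 37.7), and below the rest for COL3A1 at 317 FPKM (others 350 to 373), COL18A1 at 33.0 FPKM (others 40.0 to 46.2), ABCC1 at 23.2 FPKM (others 24.8 to 25.8), NKD2 at 9.11 FPKM (others 11.5 to 12.7) and TNFAIP2 at 2.37 FPKM (others 3.37 to 3.85). Replicate 1 of A2780 OlaR stood above the rest for ETV1 at 0.551 FPKM (others 0.298 to 0.395), GLI3 at 4.39 FPKM (others 3.81 to 4.08), HOXD10 at 11.6 FPKM (others 8.19 to 9.32) and PCDHB2 at 0.112 FPKM (others 0.00923 to 0.0536). Replicate 3 of A2780 OlaR stood above the rest for LRIG1 at 2.24 FPKM (others 1.72 to 1.92). Replicate 4 of A2780 OlaR stood above the rest for BRD9 at 60.4 FPKM (others 56.7 to 58.3). Replicate 6 of A2780 OlaR stood above the rest for ROR2 at 0.0772 FPKM (others 0 to 0.0202) and HLA-DOB at 2.49 FPKM (others 1.49 to 1.96), and below the rest for ANXA8 at 12.1 FPKM (others 21.0 to 26.8). Replicate 7 of A2780 OlaR stood above the rest for NOG at 0.168 FPKM (others 0 to 0.079), CRYAB at 0.268 FPKM (others 0 to 0.0531), HOXC8 at 0.354 FPKM (others 0.121 to 0.21) and BLCAP at 139 FPKM (others 122 to 129), and below the rest for ACTG1 at 1290 FPKM (others 1360 to 1390).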

How the results depend on the processing

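The 4446 calls (1936 higher, 2510 lower) ranged from 3359 with a filter at 5 FPKM to 5038 with a pseudocount of 0.1 under every setting that kept the fold minimum. With an adjusted p under 0.05 alone they became 11190 (4998 higher, 6192 lower), since no fold was then asked. Replicate numbers did not pair the samples (mean correlation of deviations -0.233 for the same number and 0.037 for different numbers), and with the replicate block the count was 4446. Members called higher minus members called lower changed sign for some lists, and the cause was not tested. With an adjusted p alone the difference was -1 for metallothioneins, -3 for Notch, -11 for the respiratory chain, 8 for cholesterol and fatty acids and 1 for tubulins. Under median-ratio scaling it was 5 for cholesterol and fatty acids, 1 for NAD and 1 for tubulins, and with a common sum -1 for the respiratory chain. In replicates 1 to 3 alone it was -1 for AP-1, -1 for the respiratory chain and 1 for NAD, in replicates 4 to 8 alone 2 for cholesterol and fatty acids, and with the filter at 5 FPKM -2 for ovarian and Mullerian genes. Among single genes, none of them called, replicates 1 to 3 alone gave -0.06 for CEBPB and -0.21 for ERBB2. A common sum gave -0.06 for ERBB2, median-ratio scaling 0.12 for CEBPD, and replicates 4 to 8 alone 0.10 for CEBPD, -0.01 for NFE2L2 and 0.04 for KRT10. Of 4211 values of named genes, 4166 kept their direction and call. Without read totals, differences among genes near 0 FPKM could not be given a counting error.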

Other observations

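Several of the largest changes lie side by side in the genome by the GENCODE annotation. The falls of MMP10 and MMP1 are 8772 bases apart on chromosome 11, those of HAPLN3 and MFGE8 3085 bases apart on chromosome 15, and those of COL3A1 and COL5A2 19151 bases apart on chromosome 2. On chromosome 17 the rises of KRT13 and KRT19 are 17911 bases apart and those of KRT19 and KRT17 91133 bases apart. LAMB2, which fell, and GPX1, which rose, lie 224055 bases apart on chromosome 3.

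Of the 4446 genes called, 4396 differed by less than 2-fold between A2780 OlaR and C13* shCON. VIM, MMP10, ANKRD1, MMP1 and ALDH1A1 were low in both, but C13* shCON had medians of 10.1, 3.11, 2.54, 1.13 and 1.89 FPKM where A2780 OlaR had 0.159, 0, 0.186, 0 and 0.235 FPKM. Within A2780 OlaR, replicates 1 to 3 and 4 to 8 differed by a median of 0.18 on log2(FPKM + 1), and within A2780 by 0.08.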
